A study of Mus musculus with 18 samples.

Results

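A set of 10 genes of T cells and cytotoxic lymphocytes was followed across arrays of sorted mouse mammary tumor cells and normal mammary cells. Icos, Gzmb, Cd8a, Il7r, Ms4a4b, P2ry10, Cd69, Fyb, Cd3e and Cd3g were taken by name, and the platform annotation gave them 19 of the 34945 probe sets that carry a single gene symbol, or 10 of 18193 genes. The list was drawn up from measured values: Icos, Ms4a4b and P2ry10 were already known to differ between CD29H CD24H and CD29L CD24L tumor cells, and all 10 genes were listed with the tumor levels in view. Values of the 10 genes in that contrast, in CD29L CD24L cells against the other tumor populations and in tumors against normal cells are therefore descriptions, with no test.

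Cells of 3 mammary tumors, numbered 1, 2 and 7, had been sorted on CD29 (integrin beta1) and CD24 into 4 populations with high (H) or low (L) staining for each, in the order CD29L CD24L, CD29H CD24H, CD29H CD24L and CD29L CD24H used below, with n = 3 arrays each and 1 array per tumor. The labels put tumors 1 and 2 at transplant generation 1 and give none for tumor 7. They give no genotype, age or treatment and mention no gate against blood cells. Cells labelled as normal mammary epithelium came from 2 preparations and were sorted into a population with high CD29 and positive CD24 staining (CD29H CD24P, 2 arrays), one with positive CD29 and high CD24 staining (CD29P CD24H, 2 arrays) and one with low CD24 staining (1 array). A last array held a Stratagene reference RNA. The reference array enters no comparison, and the CD24 low array enters no difference. The CD24 low array was part of the fit of the normal arrays, where it bore on the choice of a gene's brightest probe set.

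T cells recognise antigen through a receptor whose CD3 chains carry the signal into the cell, and CD8 marks the cytotoxic T cells, which read antigen on class I molecules and kill with granzymes. Costimulatory receptors such as ICOS tune the response, and CD69 appears early after activation and helps to hold T cells in a tissue. T cells can enter mammary tumors and also live in the normal mammary gland. Several of the 10 genes are not restricted to T cells: natural killer cells make Gzmb, innate lymphoid cells carry Il7r, and Fyb is also used by myeloid cells.

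All arrays had been scaled to the same trimmed mean, and their median signals lay between 71.6 and 104.2 units. Precision is limited by the small number of arrays. On the CD24 low normal array the mean log2 level of 6 fibroblast markers was 14.39, against 7.89 to 9.26 on the 4 other normal arrays, and that of 4 luminal keratin and adhesion markers was 8.47, against 12.72 to 14.95. The markers of that array are thus at odds with its epithelial label. The ratio of the 3' to the 5' actin control, a measure of RNA integrity and amplification, was 99.3, 14.4 and 63.9 on the CD29L CD24L arrays of tumors 1, 2 and 7 and 23.2 to 77.0 on the other 9 tumor arrays. It was 3.08 to 24.7 on the 4 normal epithelial arrays. Its part in the results below was not tested.

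All 10 genes had their highest mean level in CD29L CD24L tumor cells. The mean log2 level in those cells exceeded the mean of the other 3 tumor populations by 1.69 for Cd3e to 4.38 for Icos, with a median of 2.54 over the 10 genes, whereas the median over 18193 genes was −0.02. Differences are on the scale of log2(signal + 32), which understates changes of dim genes. In RNA of sorted bulk cells, fewer cells of a type and less RNA per cell cannot be told apart. On 8 of the 10 genes, all but Cd8a and Cd3e, the 3 CD29L CD24L arrays all lay above the other 9 tumor arrays, as did 11 of the 19 probe sets. Among all genes 0.715% showed that order, and among all probe sets 0.733%; since the genes were chosen on these arrays, nothing is read from the contrast between these shares.

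**Figure D1:**
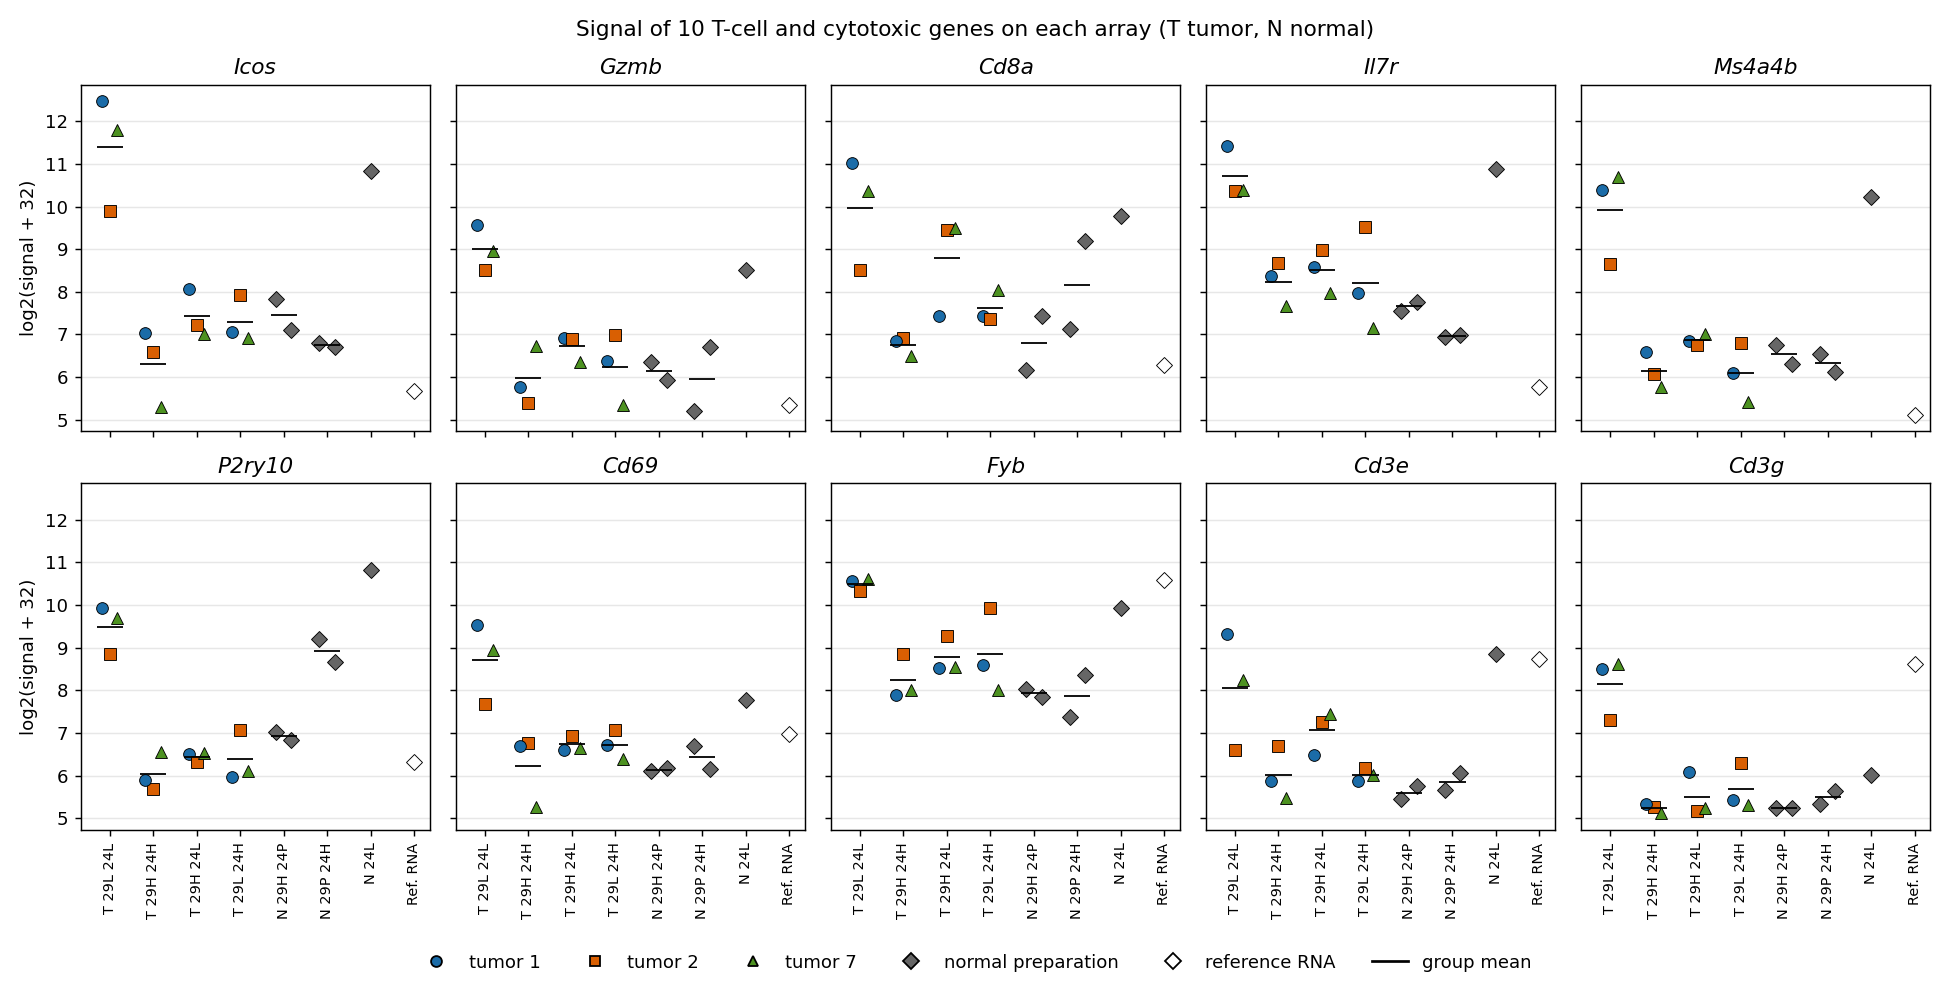
Log2(signal + 32) of the 10 genes on each of the 18 arrays, 1 panel per gene, with tumor groups (T) left of normal groups (N), 29 and 24 standing for CD29 and CD24, points for arrays and bars for group means. The 3 CD29L CD24L tumor arrays stand highest among the tumor arrays for all genes but Cd8a and Cd3e, where the array of tumor 2 lies among the others.

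The costimulatory receptor gene Icos had the largest difference of the 10. Its brightest probe set, 1436598_at, read 5697, 927 and 3525 signal units in the CD29L CD24L cells from tumors 1, 2 and 7, against 99.6, 64.4 and 7.65 in CD29H CD24H cells, 234, 117 and 97.1 in CD29H CD24L cells and 101, 212 and 88.5 in CD29L CD24H cells. All 3 arrays of the first population were far above the rest, with the array of tumor 2 the lowest of them. A second probe set, 1421930_at, read 839, 406 and 1220 in CD29L CD24L cells and no more than 172 on the other 9 arrays, and the third, 1421931_at, read 45.9, 111 and 206 against no more than 26.9. The 3 probe sets thus ordered the populations alike, at different brightness.

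Gzmb encodes granzyme B, a protease of cytotoxic granules. In CD29L CD24L cells it read 727, 331 and 466 units (tumors 1, 2 and 7), against 22.9, 10.03 and 74.7 in CD29H CD24H cells, 89.7, 86.8 and 49.5 in CD29H CD24L cells and 51.2, 95.1 and 8.90 in CD29L CD24H cells. The groups did not overlap, and Gzmb was dim outside the first population. Ms4a4b, which encodes a tetraspan protein of mouse T cells, read 1314, 369 and 1625 units in CD29L CD24L cells on probe set 1423467_at. The other 9 arrays read 10.8 to 96.5 with a median of 64.4. Its second probe set, 1425325_at, read 1.90, 11.2 and 1.44 in CD29L CD24L cells against 1.06 to 28.5 elsewhere, so the 2 probe sets disagree. The second read at most 28.5 units on every tumor array.

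The receptor gene P2ry10, whose product binds lysophosphatidylserine, read 937, 429 and 803 units in CD29L CD24L cells of tumors 1, 2 and 7. On the other 9 tumor arrays it read 19.5 to 102, with a median of 47.4. There was no overlap. Cd69 read 705, 173 and 464 units in CD29L CD24L cells, against 6.16 to 102 with a median of 71.3 on the other 9 arrays. The array of tumor 2 came closest to the others. Il7r, the interleukin-7 receptor chain that supports survival of lymphocytes, read 2719, 1278 and 1311 units in CD29L CD24L cells on probe set 1448575_at and 109 to 702 units with a median of 298 on the other 9 arrays. Its dimmer probe set, 1448576_at, read 150, 154 and 125 against 2.59 to 82.2.

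Fyb, an adaptor protein that links the T-cell receptor to integrins, varied least within the CD29L CD24L arrays. Its probe set 1452117_a_at read 1477, 1255 and 1530 units there, against 204, 427 and 227 in CD29H CD24H cells, 336, 583 and 340 in CD29H CD24L cells and 356, 942 and 224 in CD29L CD24H cells. The group of 3 lay above all others, and the highest of the others came from tumor 2. On the second probe set, 1435144_at, it read 721, 852 and 723 against 139 to 989, and there the groups overlapped through the CD29L CD24H array of tumor 2.

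Cd3g and Cd3e encode CD3 chains. Cd3g read 330, 127 and 364 units in CD29L CD24L cells of tumors 1, 2 and 7 and 2.73 to 46.5 on the other 9 tumor arrays, with a median of 7.72. These groups did not overlap. Cd3e read 606, 64.7 and 273 units in CD29L CD24L cells, against 27.1, 71.4 and 12.7 in CD29H CD24H cells, 57.7, 121 and 141 in CD29H CD24L cells and 26.4, 40.5 and 32.4 in CD29L CD24H cells. Here the array of tumor 2 lay within the range of the other populations.

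Cd8a, the alpha chain of the CD8 coreceptor, had 5 probe sets, of which 1440164_x_at was the brightest. In CD29L CD24L cells it read 2058, 331 and 1276 units (tumors 1, 2 and 7), against 83.1, 89.7 and 58.6 in CD29H CD24H cells, 141, 672 and 691 in CD29H CD24L cells and 141, 131 and 233 in CD29L CD24H cells. In tumor 2 the CD29H CD24L array was above the CD29L CD24L array. The 4 other probe sets had medians of 56.3 to 274 in CD29L CD24L cells and 15.7 to 58.3 on the other 9 arrays, and on each of them the groups overlapped. The name of the brightest probe set ends in x_at, which Affymetrix gives to probe sets that may also bind other transcripts.

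Promoter sequences were set beside the levels because the 10 genes were high on the same arrays. The RefSeq promoter table of build GRCm38.p6, which covers 250 bases before to 50 bases after a gene's start, held 9 windows for 8 of the 10 genes; it had 2 for P2ry10. Each window was searched on both strands for TGTGGT, the core letters of the RUNX motif (ACCACA on the other strand), and for AGGAAG, a core of the ETS motif (CTTCCT on the other strand). RUNX and ETS proteins are transcription factors known in T cells. The RUNX letters were in 4 of the 9 windows, those of Gzmb, Il7r and both of P2ry10, and in 16.8% of all 32851 windows of that length. The ETS letters were in 4 of the 9, those of Il7r, Cd3e and both of P2ry10, and in 35.4% of all windows. In no window did the motifs overlap each other. The windows of the 4 genes with a match, the first of the pair for P2ry10, are printed 5' to 3' along the gene's strand, with the matches in capitals: Gzmb at chr14:56262285-56262584 on the minus strand with 2 RUNX matches, Il7r at chr15:9529827-9530126 on the minus strand with 1 of each, P2ry10 at chrX:107088242-107088541 on the plus strand with 1 of each, and Cd3e at chr9:45009562-45009861 on the minus strand with 2 ETS matches.
Gzmb: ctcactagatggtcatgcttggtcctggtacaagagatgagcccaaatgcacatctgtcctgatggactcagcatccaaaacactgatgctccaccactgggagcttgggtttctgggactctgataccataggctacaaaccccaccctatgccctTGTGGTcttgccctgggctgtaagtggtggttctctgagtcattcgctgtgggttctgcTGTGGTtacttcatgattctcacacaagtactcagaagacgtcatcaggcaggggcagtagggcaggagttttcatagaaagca
Il7r: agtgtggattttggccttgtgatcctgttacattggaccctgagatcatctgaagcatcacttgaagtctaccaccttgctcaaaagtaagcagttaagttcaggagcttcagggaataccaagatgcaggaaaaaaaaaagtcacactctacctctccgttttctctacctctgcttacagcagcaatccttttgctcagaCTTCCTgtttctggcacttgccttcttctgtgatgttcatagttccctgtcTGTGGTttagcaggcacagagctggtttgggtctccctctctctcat
P2ry10: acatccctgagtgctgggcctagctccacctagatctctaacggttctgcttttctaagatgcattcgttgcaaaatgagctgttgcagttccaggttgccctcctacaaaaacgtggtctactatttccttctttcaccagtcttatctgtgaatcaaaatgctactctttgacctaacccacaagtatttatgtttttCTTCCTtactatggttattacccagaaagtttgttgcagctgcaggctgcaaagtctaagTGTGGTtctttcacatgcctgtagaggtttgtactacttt
Cd3e: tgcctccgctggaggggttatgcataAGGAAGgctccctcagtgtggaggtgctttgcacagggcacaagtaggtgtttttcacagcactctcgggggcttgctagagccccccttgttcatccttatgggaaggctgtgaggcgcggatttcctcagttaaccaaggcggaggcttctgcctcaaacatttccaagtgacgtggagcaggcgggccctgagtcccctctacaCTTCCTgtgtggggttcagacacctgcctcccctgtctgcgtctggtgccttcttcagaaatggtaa

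The letters are a description of these windows and not evidence of a bound site.

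CD29L CD24L cells came first for each of the 10 genes. The gap to the next population was larger than the larger of the SDs of the pair for 8 genes. Cd8a had a gap of 1.16 to CD29H CD24L cells with an SD of 1.31, and Cd3e a gap of 1.00 with an SD of 1.37, so neither was separated beyond its spread. For Icos the mean log2 levels were 11.40 ± 1.34 in CD29L CD24L, 6.31 ± 0.90 in CD29H CD24H, 7.43 ± 0.55 in CD29H CD24L and 7.30 ± 0.55 in CD29L CD24H cells (SD, n = 3 each). CD29H CD24L cells came second for 8 genes, and CD29L CD24H cells for Fyb and Cd3g. For Gzmb, Il7r, P2ry10, Cd69 and Cd3g, neither of the gaps among the 3 lower populations exceeded the larger SD.

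CD29H CD24H cells, which the study examined for tumor-initiating activity, were at the other end for several members. The difference CD29H CD24H minus CD29L CD24L was −5.08 for Icos, −3.77 for Ms4a4b, −3.45 for P2ry10, −3.20 for Cd8a, −3.04 for Gzmb and −2.91 for Cd3g. It was between −2.49 and −2.04 for Cd69, Il7r, Fyb and Cd3e. All 10 were negative, where 49.9% of all genes were positive. This comparison shares the CD29L CD24L arrays with the one above, so the values are not separate evidence.

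**Figure D2:**
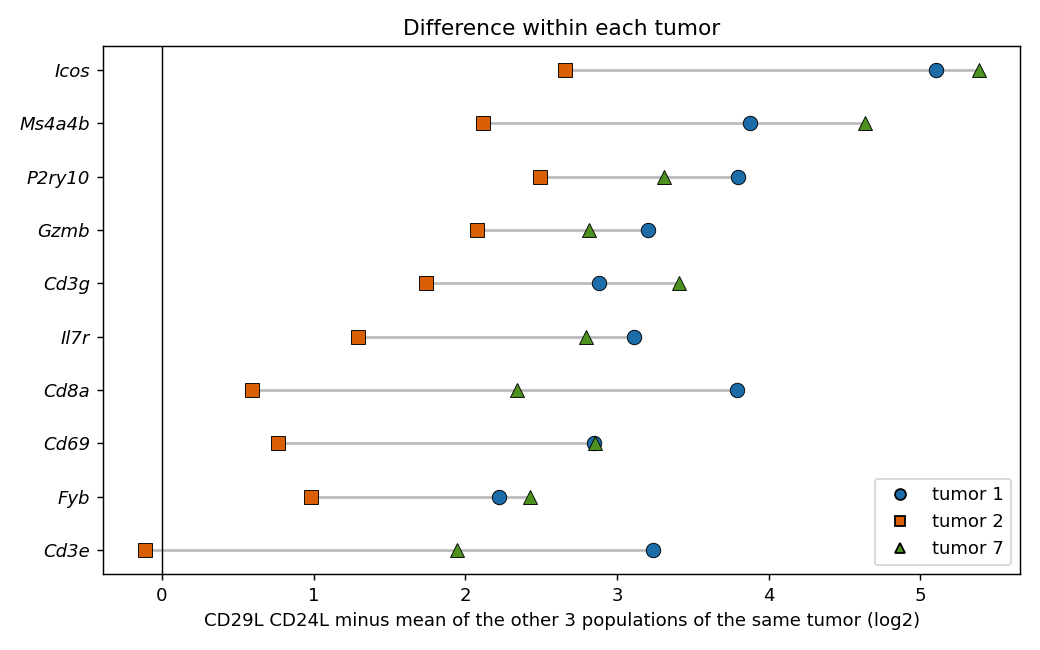
Difference of the CD29L CD24L array from the mean of the other 3 arrays of the same tumor, in log2(signal + 32), for each gene, with 1 point per tumor and a grey line from the lowest to the highest. The point of tumor 2 is the lowest for every gene, and for Cd3e it lies at −0.11.

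Within each tumor the CD29L CD24L array was compared with the mean of the 3 others. Tumor 2 had the smallest difference for all 10 genes. For Icos it was 5.10, 2.66 and 5.38 log2 units in tumors 1, 2 and 7, and for Ms4a4b 3.88, 2.12 and 4.63. Cd8a differed by 3.79, 0.59 and 2.34. Cd3e differed by 3.24 in tumor 1 and 1.94 in tumor 7 and by −0.11 in tumor 2. The CD29L CD24L array of tumor 2 also had the lowest actin ratio of the 12 tumor arrays, 14.4, and its mean over the 10 genes was 8.67, against 10.27 in tumor 1 and 9.83 in tumor 7. The other 9 tumor arrays had means of 6.24 to 7.51.

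General leukocyte genes were also high in the same arrays. Ptprc, the leukocyte antigen CD45, read 2982, 2428 and 3316 units in the CD29L CD24L arrays (tumors 1, 2 and 7), against 428, 877 and 1028 in CD29H CD24H, 625, 1791 and 522 in CD29H CD24L and 323, 1874 and 538 in CD29L CD24H cells. The groups did not overlap. The difference of 1.89 ± 0.49 (SE) did not pass in limma (adjusted p = 0.471) and passed with the tumor as a block (adjusted p = 0.0495). The mean over 4 leukocyte markers was 10.98 to 11.23 in CD29L CD24L cells and 8.85 to 11.15 on the other 9 arrays.

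Markers of other blood cells were measured on the same arrays. The mean over 4 neutrophil markers was 8.57 to 9.74 in CD29L CD24L cells and 7.29 to 8.29 elsewhere in the tumors, without overlap, while the 14 macrophage and myeloid markers (9.01 to 10.94 against 8.18 to 10.38) and the 7 B-cell and plasma-cell markers (6.87 to 7.65 against 6.04 to 8.02) overlapped. All 4 neutrophil, 14 of 14 myeloid and 6 of 7 B-cell differences were positive, where 48.1% of all genes were. None of them passed in limma without the block. With the tumor as a block the neutrophil gene S100a9 passed, at 2.65 ± 0.46 (limma adjusted p = 0.0146, against 0.0694 without the block). S100a8 differed by 2.54, but the neutrophil markers Csf3r and Mmp8 by only 0.40 and 0.16. The mean of 6 T-cell markers, of which Cd3e and Cd3g are members, was 6.77 to 7.87 in CD29L CD24L cells and 5.69 to 6.35 elsewhere. Background cannot be told apart from low expression, so these means do not show whether each cell type was present. The part of these markers in the levels of the 10 genes was not tested.

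A wider list of T-cell and natural killer genes, drawn up with earlier results of these data known and holding none of the 10, was tested over all genes. Of 84 listed genes 76 were measured, and 8 were not analysed here. In CD29L CD24L cells 4 of the 76 rose and 0 fell in limma, or 5.26%, where 0.0605% of all genes passed, all of them higher. The 4 were the checkpoint receptors Pdcd1 and Ctla4, the costimulatory receptor Cd28 and the chemokine Ccl5, the last already known from earlier results to differ. With the tumor as a block 11 of the 76 rose, or 14.5%, where 0.203% of all genes passed and 0.187% rose.

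Pdcd1, which encodes PD-1, read 448, 78.4 and 337 units in CD29L CD24L cells of tumors 1, 2 and 7 and 3.62 to 37.6 on the other 9 tumor arrays. Its difference was 2.59 ± 0.37 (SE, adjusted p = 0.0215 in limma). Ctla4 read 670, 259 and 529 units in CD29L CD24L cells and 3.50 to 96.8 elsewhere, a difference of 2.61 ± 0.41 (limma adjusted p = 0.0414). These inhibitory receptors and the activating receptor gene Cd28 had no overlap between the groups. Cd28 read 371, 151 and 479 units against 2.60 to 88.4, a difference of 2.41 ± 0.38 (limma adjusted p = 0.0421). Ccl5, a chemokine made by memory T cells and natural killer cells, read 1224, 2315 and 686 units against 31.9 to 456, a difference of 3.11 ± 0.45 (limma adjusted p = 0.0224).

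A further 7 genes passed only with the tumor as a block. The cytotoxic granule gene Nkg7 differed by 2.73 ± 0.52 (adjusted p = 0.161 in limma, 0.0364 with the block) and the natural killer receptor gene Klrc1 by 2.36 ± 0.40 (0.0628 in limma, 0.0047 with the block). The others were the interleukin-18 receptor chain Il18r1, the protease Ctsw, the natural killer receptor Klrd1, the chemokine receptor Cxcr6 and the transcription factor Ikzf1. By role, 3 of 13 costimulation and checkpoint genes and 1 of 10 chemokine and homing genes rose without the block. Of 20 receptor-signalling genes 0 rose, where 0.0605% of all genes passed. Over the whole list 65 of 76 differences were positive, with a median of 0.79. Among all genes 48.1% were positive, with a median of −0.02.

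Several textbook T-cell genes of that list did not pass in limma, with or without the tumor as a block. Cd3d, the third CD3 chain, read 117, 61.7 and 59.7 units in CD29L CD24L cells and 2.32 to 48.3 on the other 9 arrays. Its difference was 1.26 ± 0.28 (limma adjusted p = 0.269 without the block, which ignores the pairing by tumor, and 0.0986 with it). Gzma, a second granzyme, differed by 1.72 ± 0.41 (adjusted p = 0.345). The differences were 0.12 ± 0.28 for the helper coreceptor Cd4, 0.30 ± 0.37 for the CD8 beta chain Cd8b1, −0.27 ± 0.36 for the receptor zeta chain Cd247, −0.31 ± 0.32 for perforin (Prf1) and 0.88 ± 0.31 for the regulatory T-cell factor Foxp3. Cd4 read at most 53.6 units on any tumor array. Levels of different probe sets cannot be set against each other, so these values do not give a ratio of CD4 to CD8 cells.

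The count of 4 rested on single arrays. It was 0 without the tumor 1 or tumor 7 array of CD29L CD24L cells, the tumor 2 array of CD29H CD24H cells, the tumor 1 array of CD29L CD24H cells or the tumor 1 or 2 array of CD29H CD24L cells. It was 2 without the CD29H CD24H or the CD29L CD24H array of tumor 7, and 8 without the CD29L CD24L array of tumor 2. All 4 differences stayed positive without each array, between 2.11 for Cd28 and 3.53 for Ccl5. In CD29H CD24H minus CD29L CD24L cells, Ccl5 was the single gene of the 76 that passed without the block, at −3.79 ± 0.55 (limma adjusted p = 0.0377), where 0.0275% of all genes passed. With the block 9 of the 76 fell, where 0.165% of all genes passed and 0.148% fell. The Ccl5 call was lost, and the count was 0, without any of the 3 arrays of CD29H CD24H cells, without tumor 1 or 7 among the CD29L CD24L arrays, and without tumor 1 or 2 among the CD29H CD24L or the CD29L CD24H arrays. Without tumor 2 among the CD29L CD24L arrays the count was 6, but Ccl5 was not one of them (limma adjusted p = 0.0725). Since Ccl5 was already known from earlier results to differ, its call is not independent evidence.

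**Figure D3:**
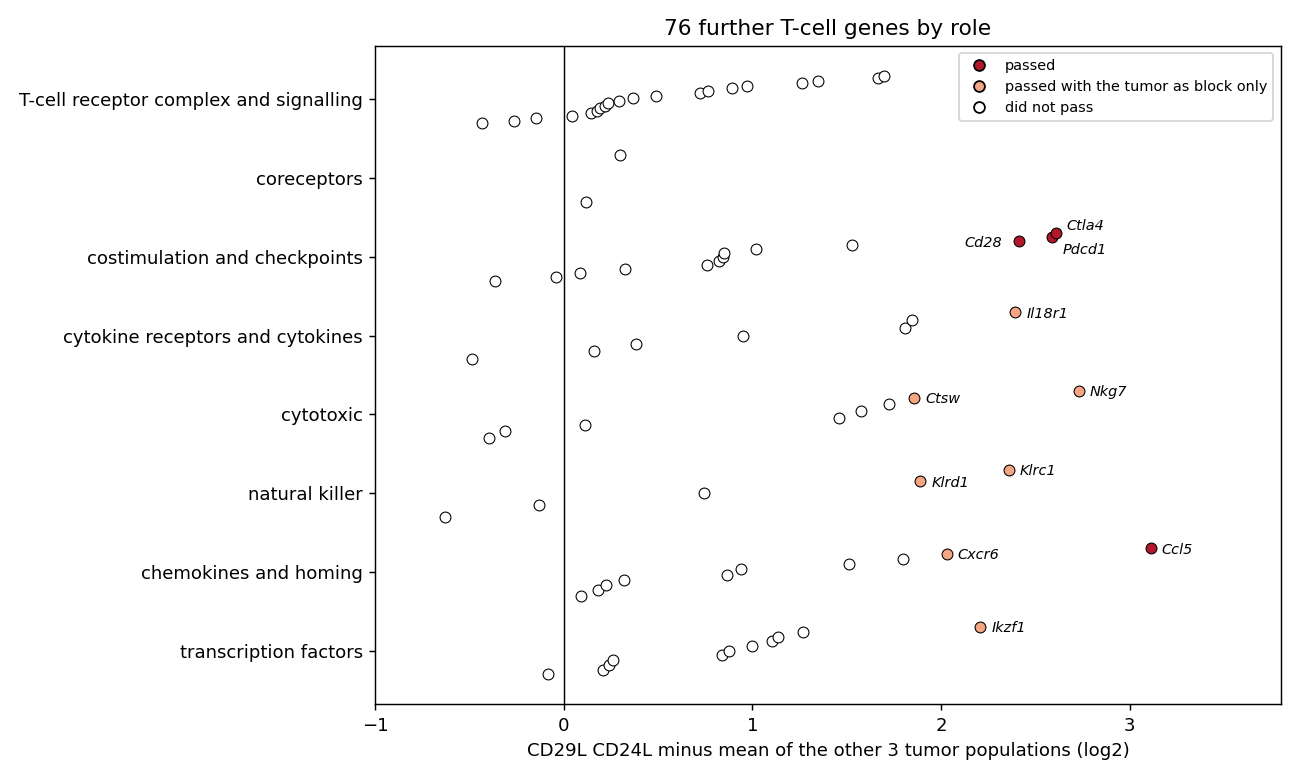
CD29L CD24L cells minus the other 3 populations' mean (log2) for 76 further T-cell and natural killer genes, 1 point per gene in rows by role, filled by the limma test. Passing genes stand in several rows, with 3 of the 4 dark points in the costimulation and checkpoint row.

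In the comparison of CD29H CD24L with CD29L CD24H tumor cells, the means use neither the CD29H CD24H nor the CD29L CD24L arrays, while the standard errors pool the spread over all 12 tumor arrays, the CD29L CD24L ones that chose the members included. The members were tested here apart from P2ry10, which had also been named from an average over both CD24 gates. None of the 9 members passed in limma, and 0 had an unadjusted p under 0.05, in a comparison where 0.907% of all genes passed. Cd8a had the largest difference, 1.19 ± 0.65 (SE, adjusted p = 0.906), with 141, 672 and 691 units in CD29H CD24L and 141, 131 and 233 in CD29L CD24H cells. Cd3e followed with 1.04 ± 0.59 (limma adjusted p = 0.921). The other 7 lay between −0.18 ± 0.41 for Cd3g and 0.76 ± 0.54 for Ms4a4b, and P2ry10 was at 0.06. With 3 arrays each, differences of this size were not resolved from the spread. With the block 2.37% of all genes and again 0 of the 9 passed. Of the wider list 1 of 76 rose, Thy1, by 2.84 ± 0.46 (limma adjusted p = 0.0123), where 0.89% of all genes rose. Thy1 is a surface protein of T cells that fibroblasts also carry, and the mean of 6 fibroblast markers was 13.29 to 14.10 in CD29H CD24L and 9.43 to 12.17 in CD29L CD24H cells. Its part in the Thy1 value was not tested. The Thy1 call was lost without tumor 2 or 7 among the CD29H CD24L arrays, and without tumor 1 or 7 among the CD29L CD24H arrays.

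The tumor of origin was tested within the same sorted populations. The choice of the 10 genes used differences between populations, but on the same tumor arrays. Genes that vary much between tumors separate the populations less clearly, so the choice may have favoured a low tumor effect. None of the 10 passed in limma's F test, where 21.4% of all genes did, and nothing is read from the contrast between these shares. Il7r came closest (F = 5.01, adjusted p = 0.0831), followed by Fyb (F = 3.85, adjusted p = 0.137), and these 2 had an unadjusted p under 0.05. The others had adjusted p-values of 0.325 to 0.956. Outside CD29L CD24L cells, both genes were highest in tumor 2 in each population: Il7r read 379, 474 and 702 units in CD29H CD24H, CD29H CD24L and CD29L CD24H cells of tumor 2, against 298, 354 and 219 in tumor 1 and 172, 218 and 109 in tumor 7. Without the CD29L CD24L array of tumor 2, Il7r (adjusted p = 0.0135) and Fyb (adjusted p = 0.0282) both passed in limma. Over all alternatives the adjusted p ranged from 0.0135 to 0.288 for Il7r and from 0.0282 to 0.499 for Fyb. The leukocyte markers had their highest mean in tumor 2 in the same 3 populations, 10.04, 10.73 and 11.15, against 9.42, 9.94 and 8.85 in tumor 1 and 8.99, 9.26 and 9.19 in tumor 7, and their part in the Il7r and Fyb levels was not tested.

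Of the wider list 10 of 76 differed by tumor, or 13.2%, below the 21.4% of all genes. They were the transcription factors Ets1, Bcl11b, Satb1, Gata3 and Runx3, the interleukin-18 receptor chain Il18r1, the signalling genes Zap70, Fyn and Lat and the costimulatory receptor Tnfrsf18. With the mean of a gene's probe sets Runx3 had an F of 0.48 (limma adjusted p = 0.767) and its call was lost. Ets1 had the highest F, 49.0 (limma adjusted p = 3.16e-05), with 3237 to 7621 units on the arrays of tumors 1 and 2 and 856 to 1253 on those of tumor 7. Epithelial and other cells also use several of these factors, and the levels do not say which cells they come from.

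Among normal cells, P2ry10 was the member that differed between the sorted populations. It read 97.7 and 81.5 units in CD29H CD24P cells, against 554 and 373 in CD29P CD24H cells, and the pairs did not overlap. The difference of −2.01 ± 0.30 (SE, n = 2 each) passed in limma (adjusted p = 0.00647), where 15.3% of all genes passed, 7.76% in the same direction. The list was drawn up from measured values of this series, and the normal levels may have borne on it. The P2ry10 call is therefore not taken as independent evidence. Without CD29H CD24P replicate 1 or 2 it was −2.10 and −1.91 with limma adjusted p-values of 0.0612 and 0.0821, so the call was lost without either array. The lone array was then taken to vary like the others. Over all alternatives the adjusted p ranged from 0.000626 to 0.0821. The labels do not say that the preparations came from separate animals, so the spread behind these p-values may be technical.

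The leukocyte antigen Ptprc also fell in CD29H CD24P cells, with 227 and 138 units against 728 and 573 in CD29P CD24H cells, a difference of −1.69 ± 0.30 (limma adjusted p = 0.0125). The plasma-cell gene Jchain fell by 3.30 ± 0.31 on the log2 scale (limma adjusted p = 0.00117), the 1 call among 7 B-cell and plasma-cell markers. Blood-cell markers did not all fall: of 14 macrophage and myeloid markers 3 were higher and 1 was lower in limma. The higher ones were C1qa at 1.64, C1qb at 1.88 and C1qc at 1.40 (limma adjusted p = 0.0261, 0.00981 and 0.0389). The leukocyte marker mean was 7.68 to 8.26 against 8.99 to 9.39, the B-cell and plasma-cell mean 6.73 to 6.81 against 7.21 to 8.27, and the T-cell mean 5.45 to 5.53 against 5.48 to 5.80. Cd3e read at most 34.5 units, Cd3g at most 17.8 and Cd3d at most 21.6 on these 4 arrays. The part of these markers in the P2ry10 difference was not tested.

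The other 9 members did not pass between the normal populations. Cd8a read 39.4 and 141 units in CD29H CD24P cells and 108 and 553 in CD29P CD24H cells, a difference of −1.37 ± 0.73 (limma adjusted p = 0.290) that passed without CD29P CD24H replicate 1, at −2.40 (adjusted p = 0.0422, and 0.0422 to 0.744 over the alternatives). Icos read 195 and 105 units in CD29H CD24P cells and 79.5 and 73.1 in CD29P CD24H cells, a difference of 0.70 ± 0.34 (limma adjusted p = 0.246). Il7r read 156 and 186 against 91.3 and 94.3, a difference of 0.70 ± 0.28 (limma adjusted p = 0.160, unadjusted 0.043). The remaining 6 lay between −0.29 for Cd69 and 0.20 for Ms4a4b.

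Of the wider list 7 of 76 passed between the normal populations, or 9.21%, below the 15.3% of all genes; 3 rose and 4 fell, where 7.59% and 7.76% of all genes did. The transcription factor Bcl11b rose by 5.30 ± 0.37 in CD29H CD24P cells (limma adjusted p = 0.000465), with 2121 and 2347 units against 9.64 and 47.8 in CD29P CD24H cells. It is known in T-cell development and is also used by basal mammary cells. Il18r1 fell, with 105 and 71.0 units against 1185 and 1169, a difference of −3.35 ± 0.27 (limma adjusted p = 0.000663). Tnfrsf18 and Tbx21 also rose, and Ikzf1, Itgae and Pdcd1 also fell. Without CD29H CD24P replicate 1 the count was 3, and without replicate 2 it was 2.

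**Figure D4:**
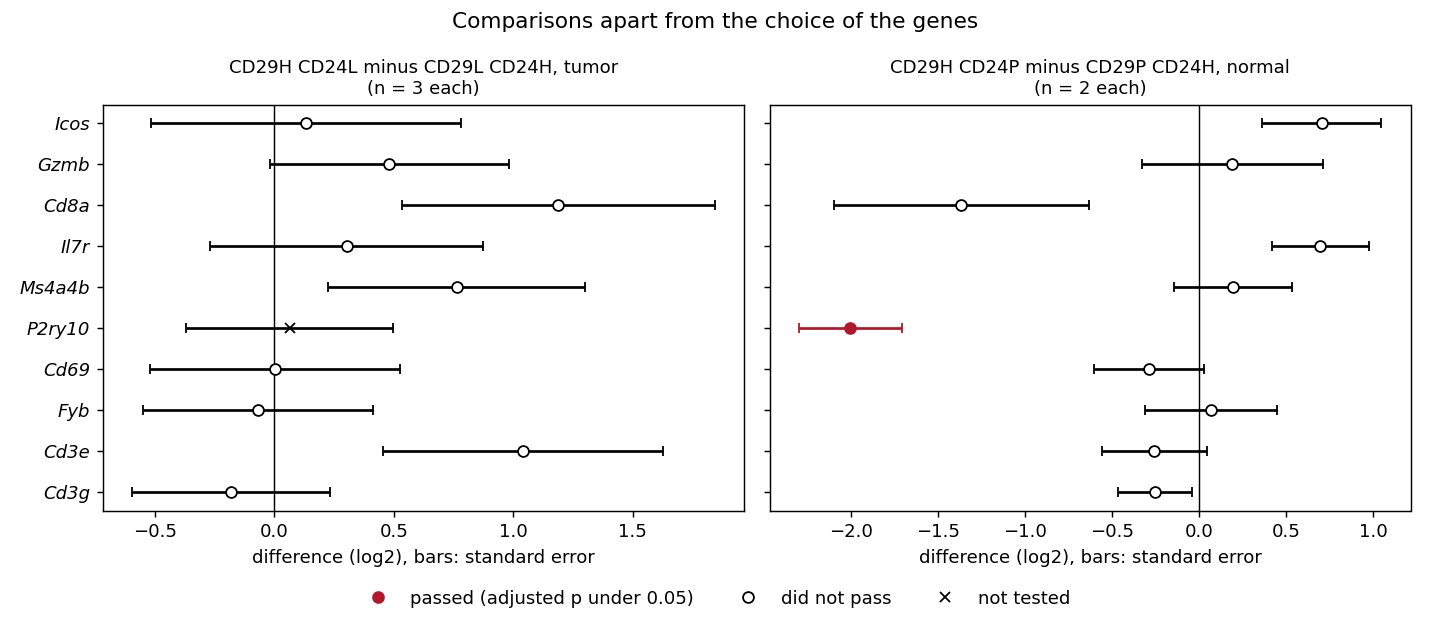
Differences of the 10 genes in log2(signal + 32) with standard errors, CD29H CD24L minus CD29L CD24H tumor cells on the left and CD29H CD24P minus CD29P CD24H normal cells on the right, filled where limma passed and crossed where not tested. On the left 7 of the 10 bars cross 0, and P2ry10 on the right is the single filled point. The normal levels may have borne on the choice of the genes.

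Averaged over their 4 sorted populations, the tumors stood above the normal epithelial arrays for 9 of the 10 genes. The difference of the means over 3 tumors and 2 preparations was 1.61 for Il7r, 1.19 for Fyb, 1.06 for Cd3e and 1.00 for Icos, and between 0.77 and 0.93 for Gzmb, Ms4a4b, Cd69, Cd8a and Cd3g. P2ry10 was the exception at −0.83. The median over the 10 was 0.88, and over all genes it was 0.15 with 61.6% of genes positive. Gates and actin ratios differed between tumor and normal arrays and cannot be told apart from the tissue. Markers of other cells were read on the same arrays. The mean of the 14 macrophage and myeloid markers was 8.18 to 10.94 on the tumor arrays and 6.68 to 7.29 on the 4 normal epithelial arrays, that of the 4 neutrophil markers 7.29 to 9.74 and 5.55 to 6.46, and that of the 6 fibroblast markers 9.43 to 14.10 and 7.89 to 9.26, each without overlap. The leukocyte mean was 8.85 to 11.23 on the tumor arrays and 7.68 to 9.39 on the normal ones. Their part in these differences was not tested. The tumor means also rest on the CD29L CD24L arrays: Icos read 7.65 to 234 units on the other 9 tumor arrays and 73.1 to 195 on the 4 normal epithelial arrays.

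Of the wider list 9 of 76 passed between tumors and normal epithelium, 7 higher and 2 lower, or 11.8% where 4.82% of all genes passed, 2.75% higher and 2.07% lower. Thy1 was higher by 3.13 ± 0.32 (SE, limma adjusted p = 0.00567), and Tnfrsf9, a costimulatory receptor, by 2.16 ± 0.32 (adjusted p = 0.0165). Cd247, the receptor zeta chain, was higher by 1.63 ± 0.30 (limma adjusted p = 0.0298). Tnfsf11 and Cd6 also passed, at 1.32 and 1.02. The calls of Tnfrsf9, Cd247, Tnfsf11 and Cd6 were each lost under some alternatives. In the same limma fit 7 of 14 macrophage and myeloid, 2 of 4 neutrophil, 2 of 4 leukocyte and 4 of 6 fibroblast markers were higher in tumors. Among them were C1qb, a complement gene of macrophages, at 4.13 (limma adjusted p = 0.0114), S100a8 of neutrophils at 4.57 (adjusted p = 0.00506) and the leukocyte gene Cd53 at 2.06 (adjusted p = 0.0298). Fibroblasts, which also carry Thy1, had Col1a1 at 5.70 and Col3a1 at 4.89 (limma adjusted p = 0.00567 and 0.00595). The fibroblast marker Dcn went the other way, at −1.21, and did not pass (limma adjusted p = 0.0974). Of 7 B-cell and plasma-cell markers 0 were higher and 1, Jchain, was lower, at −3.29 (limma adjusted p = 0.0135). The part of these markers in the Thy1 value and in the count of the wider list was not tested. Ccl5 was lower in tumors by −2.67 ± 0.28 (limma adjusted p = 0.00567): it read 31.9 to 456 units on 9 tumor arrays and 686 to 2315 in CD29L CD24L cells, against 2626 and 1236 in CD29H CD24P and 1092 and 1804 in CD29P CD24H cells. Gata3, which luminal mammary cells also use, was lower by −3.28 ± 0.65 (limma adjusted p = 0.0357). The count ranged over 4 to 14 when single arrays, tumors or preparations were left out: it was 14 without tumor 7, 4 without tumor 1 or CD29P CD24H replicate 1, and 5 without CD29P CD24H replicate 2 or either CD29H CD24P replicate.

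The genes whose pattern over the 12 tumor arrays was most like the mean of the 10 were Sla (Pearson r = 0.92), Trav9d-3 (0.91), Ms4a6b (0.91), AW112010 (0.87) and Arhgap30 (0.87), among 9092 genes brighter than the median gene. The points share tumors and array scaling, and no p is given. Sla encodes an adaptor of lymphocyte receptor signalling, and Trav9d-3 is a variable segment of the T-cell receptor alpha chain, on a probe set marked x_at. Sla read 939, 419 and 568 units in CD29L CD24L cells of tumors 1, 2 and 7 and 44.8 to 358 on the other 9 arrays. Within the list, each gene's correlation with the mean of the other 9 ran from 0.79 for Cd8a to 0.98 for Ms4a4b.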

How the data were processed

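RNA was isolated with a PicoPure kit and amplified in 2 cycles of T7 transcription, per the labels' protocols. The authors deposited a linear signal intensity for each probe set, which the submitters' processing notes credit to GCOS; the mean after trimming 2% at each end was 500 on all 18 arrays. Of 45101 probe sets, 34945 have 1 symbol in the platform annotation, 932 several and 9160 none, and 64 are controls; those with several or none were not used. The brightest probe set stood for each of 18193 genes, with no filter on low values, as log2(signal + 32). Detection calls were not used. The 10 genes and the wider lists were chosen with earlier results of these data known.

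Groups came from the sample titles. limma 3.58.1 in R 4.3.3 (lmFit, eBayes with an intensity trend) gave every test, with Benjamini-Hochberg adjustment over all 18193 genes and a threshold of 0.05; tests on tumors used the 12 tumor arrays, and tumors were set against normal cells through 1 mean per tumor or preparation. Arrays with one tumor number come from the same tumor. After subtracting group means they correlated at 0.296 to 0.608 over 18 pairs, so the number was also fitted as a block. Between tumors the range was −0.365 to −0.0403. Subtracting means over 3 tumors by itself pushes those values below 0, so nothing is read from that contrast. Named genes are the 10 members and the 5 genes most like them. They also include a fixed set from the wider list, with up to 6 passing genes of that list per comparison. Further genes were named after their values were seen. They were Nkg7, Ctsw, Klrc1, Cxcr6, Il18r1 and Ikzf1, which passed with the block, and the remaining genes that passed by tumor of origin or between normal populations. Gata3 was added in the same way for tumors against normal cells, where not every passing gene is named. Jchain and further single cell type markers were also named after their values were seen. On simulated data made from these 18193 genes, for CD29L CD24L against the other tumor populations, 6% of changes of 1 log2 unit, 78% of 2 and 96% of 3 were recovered. Python 3.11.15 and matplotlib 3.10.9 were used for the figures. Alternatives were an offset of 1 or one 4 times as large, quantile normalization, leaving out the 40% dimmest genes, the mean of a gene's probe sets, no intensity trend, the block, leaving out arrays and, chosen after seeing the data, each probe set by itself.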

Additional observations from a re-analysis of the deposited data

Results flagged for a closer look

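Signals of the 10 genes also appeared on the arrays that entered no difference. These were set against the highest of the 4 normal epithelial arrays, and those at least 1 log2 unit above it are given. On the normal CD24 low array Icos read 1803 units against 195, Gzmb 336 against 73.0, Il7r 1866 against 186, Ms4a4b 1163 against 76.1 and P2ry10 1766 against 554. Cd69 read 186 units there against 71.3, Fyb 939 against 295 and Cd3e 429 against 34.5. Cd8a, at 850 against 553, and Cd3g, at 32.4 against 17.8, fell short of 1 log2 unit, so the CD3 chains Cd3e and Cd3g differed there. That array held fibroblast markers at a mean log2 level of 14.39, leukocyte markers at 10.35 and 6 T-cell markers, with Cd3e and Cd3g among them, at 6.64. The mean of 4 mast-cell markers was 8.87 on that array, against 5.66 to 6.80 on the 4 normal epithelial arrays. The CD24 low population has 1 array, so none of these differences has a replicate.

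On the reference RNA array Fyb read 1508 units, Cd3e 393 and Cd3g 359, against 295, 34.5 and 17.8 on the highest normal epithelial array. The leukocyte markers had a mean of 11.55 there.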

How the results depend on the processing

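In each alternative run with 1 value per gene, the members' differences between CD29L CD24L cells and the other tumor populations stayed positive. The lowest was 1.06, for Cd3e when a single array was left out. Under other settings Cd3e was as low as 1.07 and Ms4a4b 1.69. Cd8a was as low as 1.31 and Icos 2.94 with the mean of a gene's probe sets. Probe sets by themselves were not all higher. Ms4a4b 1425325_at had a mean log2 level of 5.19 in CD29L CD24L cells and 5.28 to 5.49 in the other tumor populations. Cd8a 1451673_at had 6.25 against 6.08 to 6.29. Counts of calls moved more. In CD29L CD24L cells 11 genes passed, against 7 with an offset of 1, 6 without the 40% dimmest genes and 0 to 18 without single arrays; of the wider list 4 passed, against 2 with an offset of 1 or quantile normalization, 1 without the dimmest genes and 0 to 8 without single arrays. In CD29H CD24H minus CD29L CD24L cells 5 genes passed (0 with an offset of 1, 0 to 16 without single arrays), and 1 of the wider list (0 with an offset of 1, 2 with the mean of probe sets or each probe set by itself, 0 to 6 without single arrays). In CD29H CD24L minus CD29L CD24H cells 165 genes passed, 105 with an offset of 1 and 0 to 214 without single arrays (wider list 1, and 0 to 1). By tumor of origin 3886 passed, 2896 to 3660 without single arrays (wider list 10, and 8 to 10). Between tumors and normal cells 877 passed, 285 to 1556 without single arrays, tumors or preparations (wider list 9, 4 to 14, and 4 without the dimmest genes), and between normal populations 2792, 893 to 3485 without single arrays (wider list 7, and 2 to 5). The cause was not tested.

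With the replicate block the counts were 37 and 11 of the wider list in CD29L CD24L cells, 30 and 9 in CD29H CD24H minus CD29L CD24L, and 432 and 1 in CD29H CD24L minus CD29L CD24H cells. In normal cells the 2 preparations share only a number (their deviations correlated at 0.0312). There the block left 2796 genes and 6 of the wider list, and Cd8a passed with it, at −1.37 with a limma adjusted p of 0.0450. It changed no other member's call.

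The sign turned for differences near 0 that had not passed. Between CD29H CD24L and CD29L CD24H cells, Cd69 was −0.0030 with an offset 4 times as large and Fyb 0.038 with the mean of probe sets. Without single arrays the ranges there were −0.16 to 0.17 for Cd69, −0.49 to 0.48 for Fyb, −0.18 to 0.45 for Icos, −0.23 to 0.96 for Il7r and −0.48 to 0.13 for Cd3g. Between normal populations Ms4a4b was −0.023 with the mean of probe sets, and without single arrays it ranged over −0.029 to 0.42, Gzmb over −0.56 to 0.95 and Fyb over −0.42 to 0.56. Over all named genes, 1392 of the values under an alternative kept their direction and side of the threshold, 80 lost a call, 4 gained one, 18 turned and 31 untested values moved by over 1 SD. Dim genes limit the offset comparisons, since background cannot be told apart from low expression.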
